A study of Mus musculus with 60 samples.

Results

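Mitosis genes act in the steps that carry a dividing cell from mitotic entry to the separation of the daughter cells. A list of 44 such genes was chosen by name: genes of mitotic entry, the spindle, the kinetochore, chromosome condensation and cytokinesis. They were measured with expression microarrays in leukocytes (white blood cells) of the mouse spleen. A probe set is a group of array probes for 1 transcript, and every probe set annotated with the symbol of a listed gene was taken, 93 of the 45037 on the 2 array types used. These belong to 43 genes. Ccnb1 had no probe set in the annotation used here. The rule uses names and no measured value, but the list was drawn up with earlier results of these data known.

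The leukocytes came from single female mice of 3 strains, untreated, and were neither cultured nor sorted by cell type. NOD mice develop autoimmune diabetes spontaneously. NON mice are a diabetes-resistant control strain related to NOD, and C57BL/6 (C57) mice are a resistant control strain of another origin. For each strain there were 5 mice aged 2 weeks and 5 aged 4 weeks, different animals at each age, so that the 30 mice form 6 groups. The study compared the strains at ages that precede insulitis, the infiltration of the pancreatic islets by leukocytes.

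In a resting leukocyte the genes of this list are mostly silent. They are switched on together late in the cell cycle, when cyclin-dependent kinase 1 and its cyclins drive the cell into mitosis, chromosomes condense, kinetochores attach them to the spindle, and a checkpoint holds back their separation until all are attached. The spleen of a newborn mouse is a site of blood cell formation and holds dividing precursors of several lineages, whereas most cells of the adult spleen are resting lymphocytes.

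The values are MAS 5.0 signals, a linear intensity with no unit that summarises the probes of a probe set. Probe sets with a signal of 50 or more in at least 5 of the 30 mice were kept, among them 88 of the 93. A gene was represented by its kept probe set with the highest mean signal, here on the 430A array for 37 genes and on the 430B array for 6. Signals of different genes cannot be ranked, since each probe set binds its transcript differently and the 430B signals of probe sets shared by both arrays were 3.79-fold higher. Differences were tested with limma on log2(signal + 10), a scale that understates the change of dim genes. Adjusted p is the Benjamini-Hochberg value over all 38293 kept probe sets, a gene was called at an adjusted p under 0.05, and a difference is that of 4 weeks minus 2 weeks unless stated otherwise. The comparison to all genes uses the 16209 genes with a kept probe set.

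Median signals of the 430A arrays lay between 84.8 and 126, and those of the 430B arrays between 126 and 169. Degraded RNA raises the ratio of the 3' to the 5' Gapdh probe set, which lay between 0.744 and 1.30 in NOD mice, between 0.746 and 4.00 in NON and between 0.804 and 2.40 in C57. From 2 to 4 weeks its group median went from 0.794 to 0.914 in NOD, from 0.883 to 1.28 in NON and from 1.259 to 1.26 in C57. With this ratio as a covariate, the age change averaged over strains called 39 of the 43 genes, as many as without it. One NOD mouse of 4 weeks (replicate 3) had a median correlation of 0.739 with its group, the lowest of the 30. In NON, 2 mice had a high Gapdh ratio (4.00 in replicate 2 of 2 weeks and 3.15 in replicate 1 of 4 weeks), and these 3 mice are called apart below. The 4 B cell markers measured had means above 50 in every group.

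Sequences just upstream of 7 mitosis genes are shown because genes of this class are known to share a promoter pattern. The cell cycle genes homology region (CHR) and the CCAAT box, which the factor NF-Y binds, lie near the start of many genes that are expressed late in the cell cycle. The table of RefSeq promoters (mouse build GRCm38.p6) held a window for 37 of the 44 listed genes, Ccnb1 included (not for Smc4, Kif20a, Spc24, Ccna2, Tpx2, Foxm1 and Aurkb), and the 250 bases before the annotated start were searched on both strands. CHR was searched as TTTGAA, with TTCGAA as another form. The CCAAT box was searched as CCAAT. The E2F site was searched as TTGGCGC, with TTCCCGC for the next form, with TTGCCGC for the one after it, with TTCGCGC for the last. A CCAAT box on the opposite strand reads ATTGG and can share letters with TTGGCGC. A CHR on the opposite strand reads TTCAAA, or is its own complement. A CCAAT box stood in 27 of the 37 (73.0%), against 34.5% of 27025 promoters of all genes. A CHR stood in 13 (35.1%, against 17.4%), and both in 12 (32.4%, against 6.21%). The E2F letters stood in 3 (8.11%, against 7.97%). Within the last 100 bases before the start, 6 of the 37 held a CHR and a CCAAT box (16.2%, against 1.17%). The sequences are the 120 bases before the start of those 6 genes, then of Cenpp, 1 of 9 members with no match to any of the 3 motifs in the 250 bases. All are written 5' to 3' on the strand of the gene, with CHR and CCAAT matches of either strand in capitals.
Cdk1, chr10:69352913-69353032, minus strand: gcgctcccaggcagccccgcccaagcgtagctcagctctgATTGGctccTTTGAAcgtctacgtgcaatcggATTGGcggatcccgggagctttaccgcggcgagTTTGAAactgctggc
Cdc20, chr4:118437344-118437463, minus strand: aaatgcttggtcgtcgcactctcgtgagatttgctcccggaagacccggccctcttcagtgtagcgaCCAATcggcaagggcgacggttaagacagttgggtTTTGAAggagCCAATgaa
Ube2c, chr2:164769809-164769928, plus strand: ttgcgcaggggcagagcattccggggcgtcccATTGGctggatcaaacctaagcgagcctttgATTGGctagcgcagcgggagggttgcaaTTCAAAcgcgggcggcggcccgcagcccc
Kif11, chr19:37376262-37376381, plus strand: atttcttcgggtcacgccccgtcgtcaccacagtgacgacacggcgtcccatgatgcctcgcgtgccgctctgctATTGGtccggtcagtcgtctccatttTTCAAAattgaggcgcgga
Kif22, chr7:127042421-127042540, minus strand: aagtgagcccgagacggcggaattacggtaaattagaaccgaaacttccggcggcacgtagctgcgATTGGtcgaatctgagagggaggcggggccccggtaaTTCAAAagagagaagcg
Top2a, chr11:99024190-99024309, minus strand: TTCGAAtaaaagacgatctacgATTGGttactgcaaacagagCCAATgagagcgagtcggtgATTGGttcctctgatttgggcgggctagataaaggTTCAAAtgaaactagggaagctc
Cenpp, chr13:49652732-49652851, minus strand: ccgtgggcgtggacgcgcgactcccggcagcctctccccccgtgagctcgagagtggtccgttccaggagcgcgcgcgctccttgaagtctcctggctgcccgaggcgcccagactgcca

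In Cdk1, Cdc20, Ube2c, Kif11, Kif22 and Top2a the CHR nearest the start began 15 to 29 bases upstream. Upstream of it in each lay a CCAAT box, the nearest 45 to 58 bases from the start. A match is a matter of letters in this window, and binding was not measured.

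Between 2 and 4 weeks of age most mitosis genes fell. With the age change averaged over the 3 strains, 39 of the 43 genes were lower at 4 weeks and 0 higher. Over all genes, 2.71% were called lower and 1.95% higher. The median log2 difference of the 43 genes was -0.94, against 0.02 over all genes, and single genes ranged from -1.76 (Bub1b) to 0.18 (Tpx2). At an unadjusted p under 0.05 there were 40 of the 43, all lower, against 8.43% of all genes. Of the 88 member probe sets, 58 were called lower and 0 higher, where 3.19% of all kept probe sets were called in either direction. The 4 genes not called were Foxm1, Kif4, Smc4 and Tpx2. In leukocytes taken in bulk, fewer dividing cells and less mitotic RNA per cell cannot be told apart.

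The mean of the 43 genes in a mouse, each gene centred on its mean over the 30 mice, gives the level of the list on the log2 scale. In NOD mice of 2 weeks it was 0.27, 0.28, 0.74, 0.37 and -0.09, and in NOD mice of 4 weeks -0.03, -0.14, -1.07, -0.40 and -0.42. In NON mice it was 0.90, 0.69, 0.90, 0.43 and 1.19 at 2 weeks, and -0.33, -0.25, 0.15, 0.10 and -0.34 at 4 weeks. In C57 mice it was 0.31, 0.51, -0.29, 0.21 and 0.41 at 2 weeks, and -0.86, -0.52, -1.10, -0.41 and -1.23 at 4 weeks. The ages did not overlap in NON or in C57. In NOD the lowest mouse of 2 weeks lay below the highest mouse of 4 weeks. The highest group mean was that of NON at 2 weeks (0.82 ± 0.28, SD, n = 5) and the lowest that of C57 at 4 weeks (-0.82 ± 0.36).

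**Figure D1:**
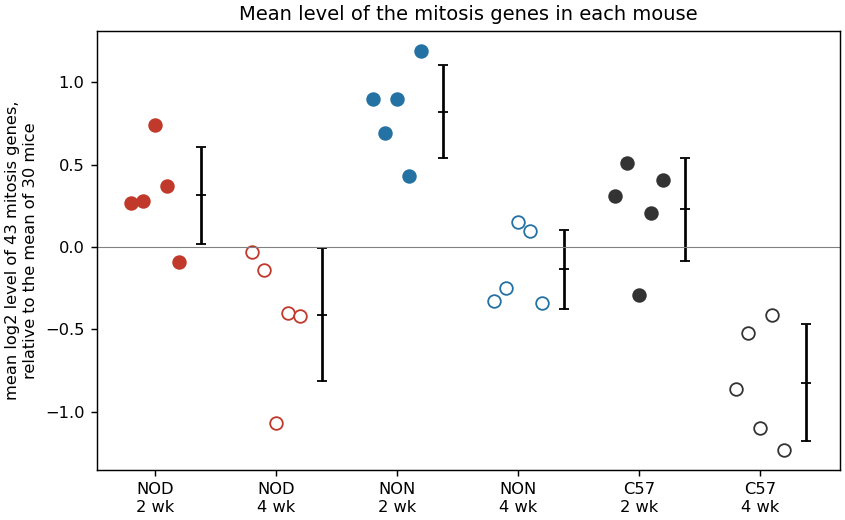
Mean log2 level of the 43 mitosis genes in each of the 30 mice, each gene centred on its mean over all mice, by strain and age. Points are mice and the bars are the group mean ± SD (n = 5). The means fell from 0.32 to -0.41 in NOD, from 0.82 to -0.13 in NON and from 0.23 to -0.82 in C57.

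Among the genes of mitotic entry, 6 of 7 measured fell with age (median log2 difference -0.97). Cdk1 encodes the kinase that starts mitosis. Its signal was 1549, 1094, 1767, 1210.3 and 640.3 in NOD mice of 2 weeks and 917, 596, 345, 566 and 442 in those of 4 weeks. In NON it was 1895, 1366, 1323, 1599 and 2207 and then 513, 565, 1081, 736 and 345. In C57 it was 934, 1266, 369.8, 1129.5 and 1562 and then 96.8, 309.9, 361, 555 and 241. Every NON mouse of 4 weeks was below every NON mouse of 2 weeks, whereas in NOD and C57 the lowest 2 week mouse lay within the range of the 4 week mice. Averaged over strains, Cdk1 fell by a log2 of 1.44 (standard error 0.23, limma adjusted p = 0.00024). Cks2, a small subunit that binds Cdk1, had mean signals at 2 and 4 weeks of 1987 ± 724 then 1117 ± 471 for NOD, 2752 ± 529 then 1513 ± 172 for NON and 1633 ± 393 then 837 ± 384 for C57 (SD, n = 5; log2 difference of -0.91 with a standard error of 0.18 and an adjusted p of 0.0029). Cyclin B2 (Ccnb2, -0.97) and cyclin A2 (Ccna2, -0.83), partners of Cdk1, and Cdca3 (-1.03) and the kinase gene Melk (-1.01) fell as well. Foxm1, a transcription factor that switches on mitotic genes, was not called (log2 difference of -0.27 with a standard error of 0.15 and an adjusted p of 0.44). A dimmer kept probe set of Foxm1 gave -0.92 and was not called either.

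All 9 genes of the mitotic kinases and the spindle checkpoint fell (median -0.89). Bub1b encodes BubR1, a checkpoint protein that restrains the anaphase-promoting complex, and it had the largest age difference of the list. Its signal in NOD was 915, 1169, 1028, 1092 and 874 at 2 weeks and 591, 826, 106, 530.5 and 719.9 at 4 weeks. In NON it was 1952, 3311, 1902, 1687 and 2792, and then 512, 808, 1121, 657 and 618. In C57 it was 1258, 2814, 885, 2402 and 2479, and then 67.4, 316, 400.1, 924 and 308. The ages were apart in NOD and NON, and in C57 1 mouse of 4 weeks (replicate 4) stood just above the lowest mouse of 2 weeks. The difference was -1.76 (standard error 0.28, limma adjusted p = 0.00027). A second Bub1b probe set, on the 430A array, gave -1.31 (adjusted p = 0.00021), and the dimmest gave -0.60 (adjusted p = 0.29). With 430B signals scaled to 430A, the 430A probe set would represent Bub1b. Cdk1 (-1.44) would then have the largest age difference of the list. Cdca8 encodes borealin, a subunit of the chromosomal passenger complex, with mean signals at 2 and 4 weeks of 3125 ± 886 then 2234 ± 628 for NOD, 6263 ± 728 then 2043 ± 398 for NON and 3037 ± 1156 then 1280.5 ± 396 for C57 (SD, n = 5; log2 difference of -1.12 with a standard error of 0.16 and an adjusted p of 6e-05). Other members of that complex fell too: survivin (Birc5, -1.11) and aurora kinase B (Aurkb, -0.80). So did Bub1 (-1.08), Ttk (-0.79) and Mad2l1 (-0.78) of the checkpoint, and the kinases of centrosome and spindle assembly Aurka (-0.89) and Plk1 (-0.87). A dimmer 430B probe set of Aurka went the other way (0.67) and was not called.

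Both partners of the anaphase-promoting complex, the ubiquitin ligase that ends mitosis, fell. Ube2c encodes the ubiquitin-conjugating enzyme that works with it. Its signal in NOD was 1428, 1434, 2331, 1716 and 1243 at 2 weeks and 896, 795, 485, 1072 and 766 at 4 weeks, with no overlap. In NON it was 1829.6, 1137, 1956, 1772 and 3026 and then 557, 667, 1565, 936 and 494. In C57 it was 762, 1320.2, 588, 1118 and 1593 and then 204, 381, 360.2, 805 and 269. In NON and C57 the highest mouse of 4 weeks reached into the range of the 2 week mice, and all others were below it. The difference averaged over strains was -1.25 (standard error 0.20, limma adjusted p = 0.00024). Cdc20, the activator of the complex that the checkpoint inhibits, had mean signals at 2 and 4 weeks of 1477 ± 442 then 868 ± 337 for NOD, 1708 ± 303 then 709 ± 126 for NON and 973 ± 239 then 426 ± 210.0 for C57 (SD, n = 5; log2 difference of -1.12 with a standard error of 0.18 and an adjusted p of 0.00029).

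All 8 kinetochore and centromere genes fell (median -1.05). Cenpe encodes a kinesin motor at the kinetochore, with mean signals at 2 and 4 weeks of 1016 ± 217 then 522 ± 271 for NOD, 1499.7 ± 502 then 726 ± 125 for NON and 1186 ± 211 then 459 ± 129 for C57 (SD, n = 5; log2 difference of -1.23 with a standard error of 0.26 and an adjusted p of 0.0054). Cenpp encodes a subunit of the centromere-associated network that links centromere chromatin to the outer kinetochore. Its signal in NOD was 448, 328, 597, 319 and 280.0 at 2 weeks and 371, 195, 14.5, 264 and 194 at 4 weeks. In NON it was 346, 441, 612, 557 and 1261 and then 209.7, 133, 248, 297 and 165. In C57 it was 305, 453, 168, 342 and 461 and then 137, 184, 154, 357 and 104. The ages were apart in NON alone, and the lowest value of the 30, in NOD replicate 3 of 4 weeks, was under the keeping minimum of 50. The difference was -1.21 (standard error 0.29, limma adjusted p = 0.013).

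Cenpp had 2 further probe sets, which did not give the same size of change. The second fell by 1.70 (standard error 0.33, adjusted p = 0.0024), with group means at 2 and 4 weeks of 306 and 226 for NOD, 619 and 123 for NON and 347 and 111 for C57. The other, at -0.40, was not called (adjusted p = 0.51). Of the Ndc80 complex, which binds microtubules, Spc25 had mean signals at 2 and 4 weeks of 327 ± 132 then 161 ± 68.0 for NOD, 515 ± 115 then 301 ± 127 for NON and 319 ± 89.8 then 102 ± 56.4 for C57 (SD, n = 5; log2 difference of -1.16 with a standard error of 0.21 and an adjusted p of 0.0012). Nuf2 (-0.81) and Ndc80 (-0.71) fell as well. Cenpf, a large coiled-coil protein of the kinetochore, was at -1.05. Cenpa, the histone H3 variant that marks the centromere, was at -0.93 (standard error 0.12, adjusted p = 2e-05) and was 1 of 2 members, with the spindle motor gene Kif11, whose ages did not overlap in any strain. Over all genes that held, in the lower direction, for 0.148%. This rests on the brightest probe set of Cenpa, and its 2 dimmer 430B probe sets differed from it. One had group means at 2 and 4 weeks of 204 and 56.9 for NOD, 181 and 158 for NON and 179 and 109 for C57. Its ages were apart in NOD and overlapped in NON and C57, with a log2 difference in NOD of -1.59 (standard error 0.31, unadjusted p = 0.00029, limma adjusted p = 0.23) and an averaged difference of -0.87 (adjusted p = 0.24). The last probe set overlapped in every strain, at 0.13 (adjusted p = 0.87).

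**Figure D2:**
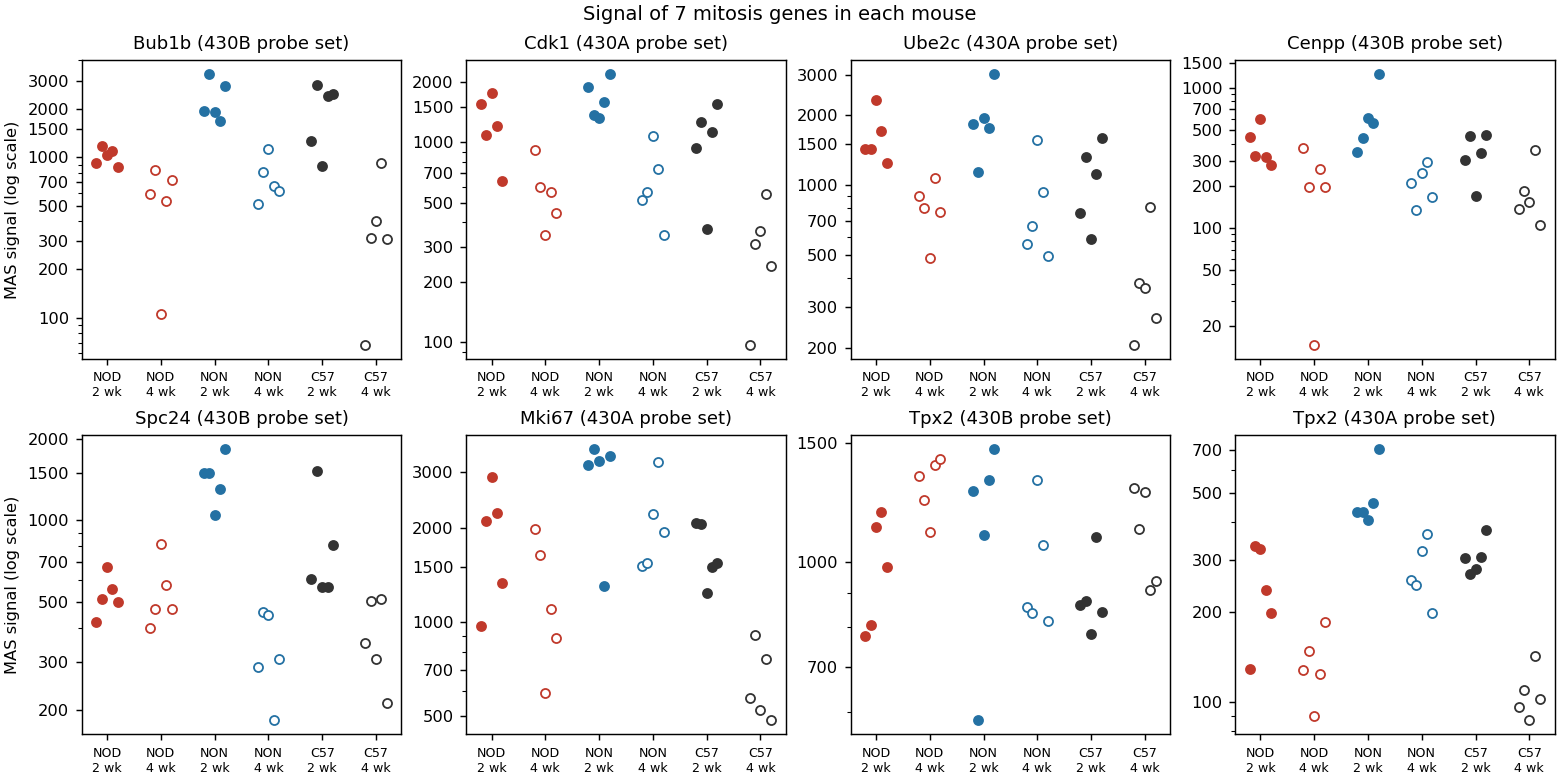
Signal in each mouse (log axis) of Bub1b, Cdk1, Ube2c, Cenpp, Spc24, Mki67 and 2 probe sets of Tpx2, by strain, with filled points for 2 weeks and open points for 4 weeks. Bub1b ranged from 67.4 in a C57 mouse of 4 weeks to 3311 in a NON mouse of 2 weeks. The 2 Tpx2 panels differ in the direction of the age difference in NOD and C57 but not in NON.

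Of 8 spindle motors and microtubule proteins, 6 fell (median of the 8 genes -0.92). Kif2c encodes a kinesin that takes microtubules apart, with mean signals at 2 and 4 weeks of 317 ± 137 then 172 ± 66.8 for NOD, 332 ± 61.6 then 141 ± 30.7 for NON and 226 ± 90.7 then 74.4 ± 37.5 for C57 (SD, n = 5; log2 difference of -1.18 with a standard error of 0.20 and an adjusted p of 0.0005). Kif20a, a kinesin of the central spindle and cytokinesis, had the smallest adjusted p of the list (log2 difference of -0.94 with a standard error of 0.11 and an adjusted p of 8.9e-06). Kif11, the motor that pushes the spindle poles apart (-0.90), the chromokinesin gene Kif22 (-0.99), Nusap1 (-1.06) and Prc1 (-0.66), which bundle microtubules, fell as well. Kif4, a chromosome-bound kinesin, was not called (-0.51, adjusted p = 0.067), but was called with quantile normalization (adjusted p = 0.041) or without NOD replicate 1 (0.018) or NON replicate 2 (0.039) of 2 weeks.

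Tpx2, which activates Aurka on the spindle, was read by 4 probe sets that disagreed. On the brightest, a 430B probe set, mean signals at 2 and 4 weeks were 976 ± 184 then 1299 ± 129 for NOD, 1149 ± 343 then 979.9 ± 214 for NON and 891 ± 116 then 1104 ± 178 for C57 (SD, n = 5; log2 difference of 0.18 with a standard error of 0.12 and an adjusted p of 0.56 with limma), and a second 430B probe set gave 0.23 (adjusted p = 0.6). On the brighter of both 430A probe sets the signal in NOD was 129, 333, 325, 237 and 198 at 2 weeks and 128, 148, 89.8, 124 and 185 at 4 weeks. In NON it was 434, 435, 407, 465 and 706 and then 256, 246, 320.3, 365 and 199, and in C57 304, 268, 278, 305 and 377 and then 96.0, 109, 86.7, 142 and 102. The ages were apart there in NON and C57, and the averaged difference was -1.0 (standard error 0.13, adjusted p = 2.8e-05). The dimmer 430A probe set gave -0.79 (adjusted p = 0.0004). Of the 45 second and further probe sets of all 29 genes that had more than 1, 19 were called lower, 0 higher and 26 not called. A mean signal under 150 was found in 19 of those 26 and in 6 of the 19 called.

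Of 6 genes of chromosome condensation and the mitotic chromosome surface, 5 fell (median of the 6 genes -0.77). Ncapg, a subunit of condensin I, had mean signals at 2 and 4 weeks of 171 ± 71.7 then 88.3 ± 55.0 for NOD, 276 ± 75.7 then 139.7 ± 30.8 for NON and 145 ± 35.1 then 46.5 ± 24.1 for C57 (SD, n = 5; log2 difference of -1.16 with a standard error of 0.21 and an adjusted p of 0.0014). Topoisomerase II alpha (Top2a, -1.03), the condensin genes Ncaph (-0.71) and Smc2 (-0.70) and the proliferation marker Mki67 (-0.82) fell. Of 5 kept Smc2 probe sets, 1 was called lower, and 1 was higher without a call (0.49). Without the 3 mice that stood apart, Mki67 had an adjusted p of 0.051. Smc4, the partner of Smc2 in condensin, was not called: its mean signals at 2 and 4 weeks were 1984 ± 471 then 1611 ± 479 for NOD, 2532 ± 732 then 2506 ± 283 for NON and 2539.8 ± 135 then 2084 ± 354 for C57 (SD, n = 5; log2 difference of -0.19 with a standard error of 0.13 and an adjusted p of 0.59). All 3 cytokinesis genes fell (median -0.80). Ect2, which activates the RhoA GTPase at the cleavage furrow, had means of 147 ± 44.5 then 69.6 ± 19.8 for NOD, 256 ± 69.3 then 112 ± 27.5 for NON and 137 ± 41.7 then 51.3 ± 31.3 for C57 (log2 difference of -1.14 with a standard error of 0.17 and an adjusted p of 9.6e-05). Anln, which encodes the scaffold anillin, was at -0.80. Racgap1, the partner of Ect2 in the central spindle, had means of 422 ± 74.5 then 319 ± 64.0 for NOD, 512 ± 120.4 then 367 ± 119.6 for NON and 450.3 ± 75.7 then 319 ± 55.6 for C57 (log2 difference of -0.46 with a standard error of 0.13 and an adjusted p of 0.04). Its call was lost without any 1 of 18 of the 30 mice, at an adjusted p of 0.052 to 0.075. These were, at 2 weeks, NOD replicates 2, 3 and 4, NON replicates 1, 3, 4 and 5 and C57 replicates 1, 4 and 5, and at 4 weeks NOD replicates 1, 2 and 3, NON replicates 1 and 5 and C57 replicates 1, 2 and 3.

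**Figure D3:**
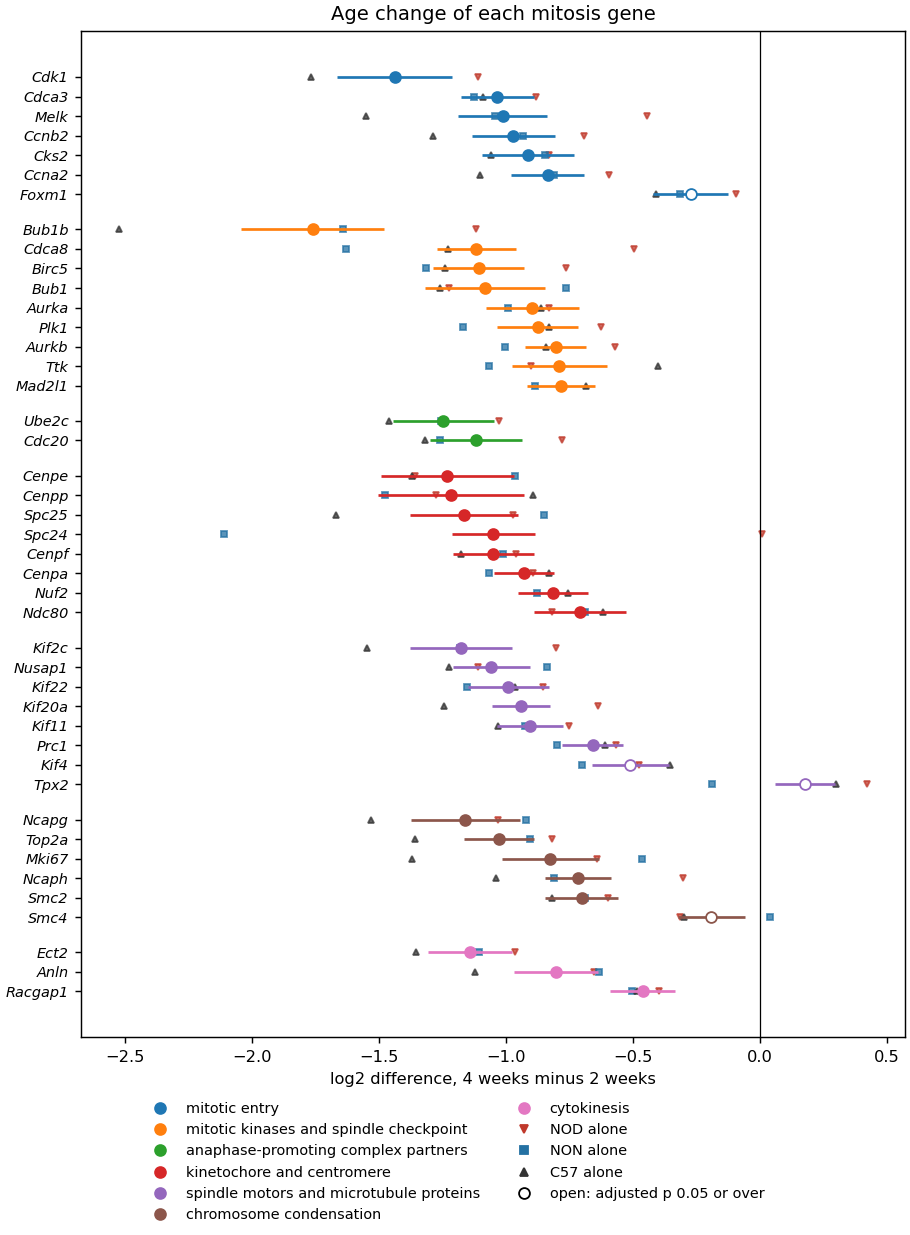
Log2 difference between 4 and 2 weeks of age for each of the 43 mitosis genes, averaged over strains, with bars of ± 1 standard error from limma and small markers for each strain. Filled points have an adjusted p under 0.05 and open points do not: Foxm1, Kif4, Smc4 and Tpx2.

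Within 1 strain the same difference was tested on 10 mice. The median log2 difference of the 43 genes was -0.78 in NOD, -0.93 in NON and -1.09 in C57, against 0.02, -0.02 and 0.02 over all genes. The mean signal was lower at 4 weeks for 41 of the 43 genes in NOD (all but Spc24 and Tpx2), for 43 in NON and for 42 in C57 (all but Tpx2). The median fold of the mean signals, 2 weeks over 4 weeks, was 1.70 in NOD, 1.99 in NON and 2.13 in C57. All mice of 4 weeks were below all mice of 2 weeks for 11 genes in NOD (1.01% of all genes), 21 in NON (2.75%) and 17 in C57 (1.9%), and 9 genes had overlapping ages in every strain. The largest fold of means was 2.19 in NOD (Cdk1), 4.27 in NON (Spc24) and 4.88 in C57 (Bub1b).

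Few of these differences passed an adjusted p of 0.05 with 10 mice. In NOD 0 genes were called (0.0185% of all genes lower), with 28 lower at an unadjusted p under 0.05 (3.11% of all genes). In C57 0 were called (0.173%), with 37 lower unadjusted (4.87%), and Cenpe and Top2a came nearest (both limma adjusted p = 0.051). Leaving out C57 replicate 3 of 2 weeks, the C57 mouse of 2 weeks with the lowest mitosis level, raised the count to 5, and leaving out replicate 2 of 4 weeks gave 1. In NON 2 genes were called lower (0.0432%), with 37 unadjusted (7.05%). They were Cdca8 (log2 difference of -1.63 with a standard error of 0.21 and an adjusted p of 0.029) and Spc24 (log2 difference of -2.11 with a standard error of 0.28 and an adjusted p of 0.032). Both calls were lost without NON replicate 1, 2, 3 or 5 of 2 weeks or 1, 3, 4 or 5 of 4 weeks, and that of Spc24 also without replicate 4 of 2 weeks, at adjusted p of 0.051 to 0.094. In 1 fit over all 30 mice, which shares the spread between the groups, 0 genes were called lower in NOD (0.179% of all genes), 14 in NON (0.925%) and 16 in C57 (0.691%).

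Whether the age change differs between strains was tested by the interaction of age and strain, and 0 of 43 genes were called (0.0% of all genes). At an unadjusted p under 0.05 there were 3, against 6.81% of all genes. In simulated data this test recovered 8 of 100 differences of log2 1 and 51 of 100 of log2 2. The age changes are therefore not shown to be equal. The lowest adjusted p was that of Spc24 (0.45), a subunit of the Ndc80 complex that joins it to the inner kinetochore. Its signal in NOD was 421, 511, 673, 558 and 499 at 2 weeks and 399.7, 472, 816, 577 and 469 at 4 weeks. In NON it was 1489, 1494, 1048, 1302 and 1836 and then 286, 457, 446, 182 and 307, and in C57 607, 1514, 568, 568 and 807 and then 353, 502, 307, 513 and 212. The ages overlapped in NOD and were apart in NON and C57. The age difference was 0.01 (standard error 0.23) for NOD, -2.11 (0.28) for NON and -1.05 (0.33) for C57, and the NOD difference minus the NON difference was 2.12 (standard error 0.40).

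Between the strains, mitosis genes tended to be highest in NON and lowest in C57. At 2 weeks the NON mean was the highest of the 3 strains for 42 of the 43 genes (34.8% of all genes), the exception being Smc4, and the C57 mean was the lowest for 30 (39.5%). At 4 weeks NON was highest for 33 (27.9%), NOD for 9, and C57 was lowest for 37 (35.3%). The median log2 difference of NON minus C57 was 0.61 at 2 weeks and 0.71 at 4 weeks, that of NOD minus NON -0.49 and -0.28, and that of NOD minus C57 0.10 and 0.44. These pairs share groups of mice. An order of means is no test, and few single genes passed one. Markers of erythroid precursors, which also divide, had their highest mean level in NON and their lowest in C57 mice at both ages. The marker Hba-a1 went against that order, with a mean signal under 50 in NON mice at both ages and in no group of the other strains. Their mean log2 level, centred over the 30 mice, at 2 weeks was 0.73 ± 0.71 for NON, 0.07 ± 0.77 for NOD and -0.45 ± 0.39 for C57 (SD, n = 5), and at 4 weeks 0.30 ± 0.66, 0.07 ± 0.48 and -0.72 ± 0.63. Of the 9 measured, 0 were called between the strains by limma's F-test at either age (5 and 4 at an unadjusted p under 0.05), and the median log2 difference of NON minus the mean of the other strains was 1.17 and 0.64. That median was 0.69 and 1.19 for granulocyte precursors (Mpo and Ctsg called at 4 weeks) and 0.09 and 1.53 for lymphocyte precursors (0 of 6 called at both ages, 1 and 5 unadjusted). Neither list was lowest in C57 at 2 weeks. Mean levels there were 1.26 for NON, 0.48 for NOD and 0.73 for C57 in granulocyte precursors. In lymphocyte precursors they were 1.03, 0.71 and 1.26. At 4 weeks granulocyte precursors had the order of the mitosis genes, and lymphocyte precursors were lowest in NOD. The part of these cells in the strain order was not tested.

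At 2 weeks 1 of 43 genes differed between the strains by limma's moderated F-test (1.82% of all genes called), with 15 at an unadjusted p under 0.05 (15.2% of all genes). It was Spc24, whose values are given above: each of the 5 NON mice was above every NOD mouse (log2 difference of -1.41 with a standard error of 0.26 and an adjusted p of 0.023 for NOD minus NON, called lower in 0.308% of all genes). The F-test of Spc24 (adjusted p = 0.026) passed 0.05 no longer without NOD replicate 1, 2, 4 or 5 or NON replicate 1, 4 or 5 of 2 weeks, with an adjusted p of up to 0.071. Cdca8 missed the threshold of the F-test (adjusted p = 0.052), while NON minus C57 was 1.11 (standard error 0.26, adjusted p = 0.045, called higher in 0.672% of all genes).

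At 4 weeks 2 genes differed between the strains (1.84% of all genes called), with 23 at an unadjusted p under 0.05 (15.1%). Kif20a had a signal of 144, 125, 101, 120.3 and 119 in NOD, 129, 109, 133, 123 and 99.1 in NON and 58.1, 55.3, 43.6, 80.2 and 68.5 in C57 mice of 4 weeks, so that all C57 mice were below all others. NOD minus C57 was 0.90 (standard error 0.18, limma adjusted p = 0.022, called higher in 0.518% of all genes) and NON minus C57 was 0.87 (adjusted p = 0.033). At 2 weeks its signal was 203 ± 75.2 for NOD, 236 ± 26.3 for NON and 159 ± 37.0 for C57 mice (SD, n = 5). Its F-test (adjusted p = 0.02) did not pass without C57 replicate 1, 2 or 3 of 4 weeks (0.051 to 0.067). The mean level of the 43 genes was also lowest in C57 mice at this age.

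Mki67, which coats mitotic chromosomes and is widely used to mark dividing cells, was the other. Its signal at 4 weeks was 1975, 1638, 592, 1099.6 and 889 in NOD, 1504, 1543, 2209.8, 3242 and 1943 in NON and 572, 911, 524, 759.8 and 485 in C57. All NON mice were above all C57 mice, and NOD mice overlapped with both. NON minus C57 was 1.65 (standard error 0.32, limma adjusted p = 0.025, called higher in 0.42% of all genes), and the F-test had an adjusted p of 0.041. That call was lost without any 1 of 11 of the 15 mice of 4 weeks (NOD replicate 4 or 5, every NON replicate, C57 replicate 1, 3, 4 or 5), with an adjusted p of 0.051 to 0.11. Cenpf was called in NON minus C57 only (log2 difference of 0.98 with a standard error of 0.21 and an adjusted p of 0.039). NOD minus the mean of both controls, a contrast that a difference from 1 control alone can move, gave 0 calls among the 43 genes at both ages (0.537% and 0.925% of all genes called), with 3 genes at 2 weeks and 4 at 4 weeks at an unadjusted p under 0.05 (9.31% and 13.9% of all genes) and medians of -0.20 and -0.00. One dim 430A probe set of Tpx2 was called lower in NOD there at 2 weeks (log2 difference of -0.88 with a standard error of 0.17 and an adjusted p of 0.026).

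Members varied together from mouse to mouse within the groups. Over the 30 mice, with the 6 group means removed, the correlation of a gene with the mean of the other members had a median of 0.72 and was over 0.5 for 34 of the 43 genes. It was highest for Aurka (0.90), Ccna2 (0.89), Anln and Top2a (both 0.88), and lowest for Foxm1 and Spc24 (both 0.22) and Tpx2 (0.29). The genes share their arrays, and with them the scaling and the RNA quality of each mouse, so this is a description and not a test.

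Other genes of the cell cycle were listed by function. Of 73 further mitosis genes measured, 37 were called lower with age and 0 higher (median -0.66), led by the centromere gene Cenpi (-2.13, limma adjusted p = 4.2e-05), Gtse1 (-1.63) and the centrosome kinase gene Nek2 (-1.46). Gtse1 had a mean signal under 50 in every group of 4 weeks, and Cenpi in C57 mice of 4 weeks. Of 31 DNA replication genes, 21 were lower and 0 higher (median -0.60), led by Gins2 of the replicative helicase (-1.34) and the DNA methylation genes Uhrf1 (-1.33) and Dnmt1 (-1.08). Of 9 G1 cyclins and their kinases, 4 were lower (median -0.49: Ccne2 -0.83, Cdk6 -0.70, Cdk2 -0.53, and 1 more). Of 12 cell cycle transcription factors, 5 were lower (median -0.49), led by the repressors E2f8 (-1.04) and E2f7 (-1.0) and by Tfdp1 (-0.71), a partner of the E2F factors. Of 13 cell cycle inhibitors, 1 was lower (Cdkn2c, -0.44) and 0 higher, and the median was 0.18.

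**Figure D4:**
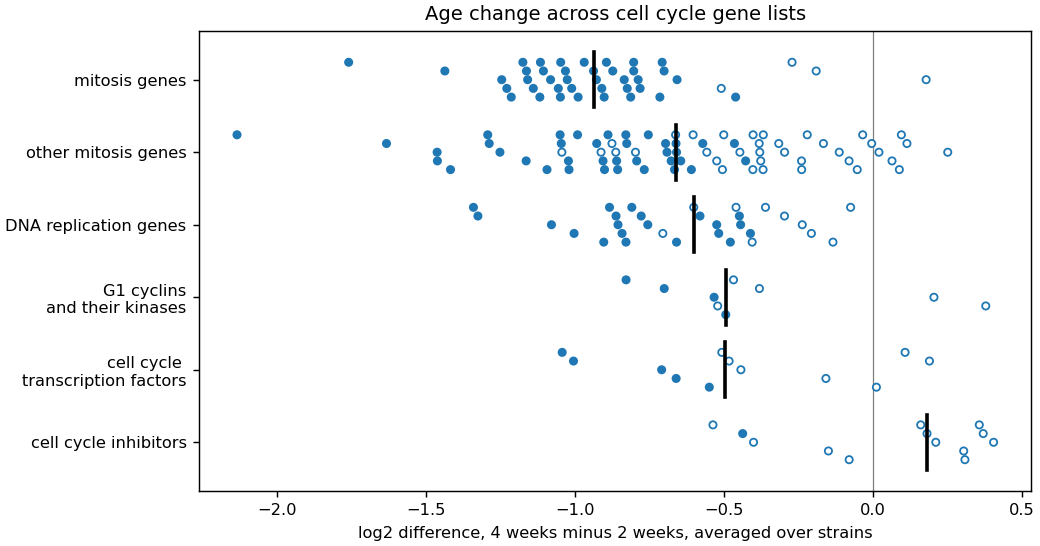
Log2 difference between 4 and 2 weeks of age, averaged over strains, for every gene of the mitosis list and of 5 other cell cycle lists. Each dot is a gene, filled where the adjusted p was under 0.05, and the bar is the median of the list, from -0.94 for the mitosis genes to 0.18 for the cell cycle inhibitors.

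Markers of several cell types changed with age in the same mice. All 6 markers of lymphocyte precursors were lower at 4 weeks (median -2.32), among them Vpreb1 (-3.11), Igll1 (-2.67) and Rag1 (-2.54). Their summed signal was 1771 to 6138 in NOD mice of 2 weeks and 711 to 1460 at 4 weeks, 2827 to 8525 and 2082 to 2255 in NON, and 2832 to 6168 and 1052 to 2381 in C57. All 5 markers of granulocyte precursors were lower (median -1.83), among them Prtn3 (-1.96), Mpo (-1.88) and Ctsg (-1.83), with summed signals of 3667 to 9464 and 1276 to 3169 in NOD, 7264 to 17151 and 3544 to 4896 in NON, and 4132 to 9726 and 869 to 1665 in C57. Rag2 had a mean under 50 in every group, and Vpreb1 in NOD and C57 mice of 4 weeks. Both precursor lists thus moved in the direction of the mitosis genes.

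Mature T cell markers moved the other way. All 5 measured were higher at 4 weeks (median 0.91, with Cd4 at 1.05 and Cd3d at 0.93), and their summed signal was 2158 to 4858 and 4034 to 5496 in NOD, 565 to 1602 and 2668 to 3276 in NON, and 2045 to 5074 and 4218 to 6100.2 in C57. At both ages all NON mice were below all mice of the other strains in T cell signal, and at 4 weeks all were above them in granulocyte precursor signal. B cell markers did not pass the test (0 of 4, median 0.03), with summed signals of 16817 to 26965 and 13751 to 25171 in NOD, 9401 to 22720 and 19841 to 24358 in NON, and 21829 to 29087 and 22128 to 28265 in C57. Of the other lists, 3 of 5 neutrophil and 2 of 5 megakaryocyte and platelet markers were lower, all 3 NK cell markers, 1 of 5 macrophage and 1 of 4 plasma cell markers were higher, and 0 of 9 erythroid and 0 of 4 stromal markers were called. The part of cell composition in the change of the mitosis genes was not tested.

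**Figure D5:**
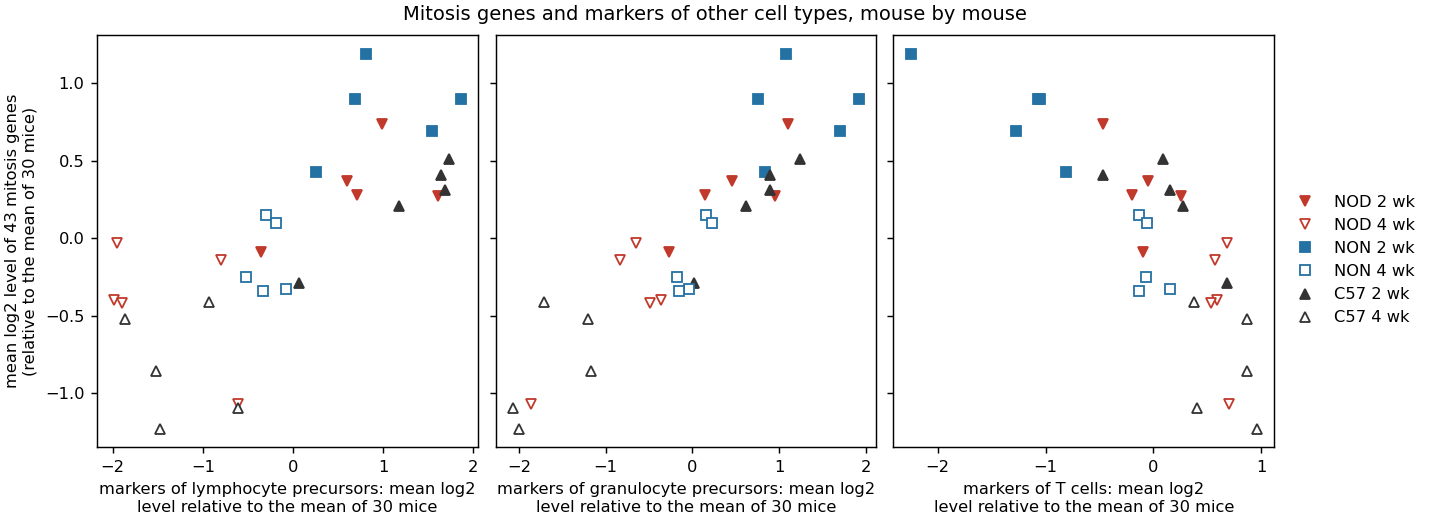
Mean log2 level of the 43 mitosis genes in each mouse against the mean level of the markers of lymphocyte precursors, of granulocyte precursors and of T cells, all centred over the 30 mice. Points are mice by strain and age. In marker level (horizontal axis), all mice of 2 weeks lie to the right of all mice of 4 weeks of their strain for both precursor lists. For T cells they lie to the left in NOD and NON but not in C57.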

How the data were processed

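RNA of unfractionated spleen leukocytes from 30 female mice was hybridised to 60 Affymetrix arrays (a 430A and a 430B array per mouse). Samples were grouped by strain and age as the labels give them. The authors computed signals with MAS 5.0 and scaled each array globally, and the deposited value is a linear intensity. The methods name a trimmed mean target of 100, while each array as deposited has a 2% trimmed mean of 250. Present and marginal calls were not used here, and neither were the 64 control probe sets of each array. The 100 probe sets on both arrays were taken from 430A. Scaling to a common mean hides any change shared by most transcripts.

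Probe sets were named through the platform annotation, and 34945 of 45037 had 1 gene symbol. Kept probe sets (signal of at least 50 in at least 5 mice, 38293) were fitted as log2(signal + 10) with limma 3.58.1 in R 4.3.3. Strains were compared by the moderated F-test and pairwise contrasts on the 15 mice of an age, ages within a strain on its 10 mice, and the averaged age change and the interaction on all 30 mice. The study's methods name a one-way ANOVA between strains and a t-test between ages, which were run as alternatives on the same values (the latter is called the methods' t-test). Tables and figures were made in Python 3.11.15 with pandas 2.3.3 and matplotlib 3.10.9. The number of arrays limits the precision, and replicates are single mice.

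The members and the other gene lists were chosen with earlier results of these data known. Full values are given for the 10 members with the largest difference among those called in a comparison, for the brightest member of each role and for Cenpp. Non-members are named from the pathway and cell type lists only, up to 3 a list with the largest difference among those called.

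The fits were tested on simulated data with 100 of 38293 probe sets changed by each known size. For the averaged age change, 65 of 100 changes of log2 1 and 23 of 100 of 0.5 were recovered. Within a strain, 0 of 100 of log2 1 were recovered in each of the 3 strains in that simulation. In a separate simulation, with changes of log2 3 and 1.5, those of 1.5 were recovered for 40 in NOD, 39 in NON and 45 in C57. Another simulation changed the NON mice of 2 weeks alone, by log2 2 and 1. The F-test between strains at 2 weeks recovered 72 of 100 changes of log2 2 and 13 of 100 of log2 1. The interaction recovered 51 and 8. Few or 0 calls in these tests therefore do not show that the strains are alike. The adjusted p depends on all changes in a simulation, so the simulations cannot be read on 1 scale. The noise was drawn independently for each probe set. Summed marker signals divide 430B values by 3.79, the median ratio of the probe sets on both arrays.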

Additional observations from a re-analysis of the deposited data

Results flagged for a closer look

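Tests for 1 mouse far from the others covered 264 groups of 5 mice. These were 43 genes and the mean of the list in each of 6 groups. Of the 264, 20 were flagged, with a gap over range above Dixon's limit of 0.71. That ratio was taken on the log2 scale of the limma fits. The signals given for the flagged mice are linear, so the ratio cannot be read from them directly. Chance flags about 1 in 20 groups, and genes on 1 array are not independent. Of the 20, 8 were NOD replicate 3 of 4 weeks, which also had the lowest correlation with its group, and in all 8 it was the lowest. Its signal was 72.6 for Aurka (other mice 257.5 to 377.6), 20.4 for Ttk (80.0 to 116.4), 12.1 for Bub1 (92.3 to 181.1), 105.8 for Bub1b (530.5 to 826.2) and 1170.6 for Cdca8 (2272.2 to 2725.3). For Cenpe it was 43.2 (572.0 to 689.3), for Cenpp 14.5 (194.4 to 371.3) and for Ndc80 21.2 (96.3 to 125.0). With all 3 mice that stood apart left out, the averaged age change called 38 genes, and of the 39 genes called with all mice Mki67 alone lost its call.

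NON replicate 4 of 2 weeks was the lowest of its group in 4 genes, with signals of 663.3 for Cenpe (1483.0 to 1981.6), 1291.6 for Smc4 (2554.6 to 3182.6), 1297.5 for Mki67 (3179.8 to 3570.3) and 132.7 for Ect2 (270.1 to 295.0). The other 8 flags fell on 8 different mice. High values were 304.5 for Aurkb in C57 replicate 4 of 4 weeks (169.1 to 195.1), 814.6 for Mad2l1 in NON replicate 3 of 4 weeks (423.9 to 485.5), 686.0 for Cenpe in C57 replicate 2 of 4 weeks (378.6 to 427.2) and 438.8 for Nuf2 in NOD replicate 3 of 2 weeks (237.0 to 274.5). Low values were 123.6 for Bub1 in C57 replicate 3 of 2 weeks (216.3 to 238.9), 1343.9 for Cdca8 in NON replicate 2 of 4 weeks (2130.5 to 2331.7), 151.4 for Kif4 in NOD replicate 1 of 2 weeks (302.7 to 371.4) and 98.3 for Kif4 in NON replicate 1 of 4 weeks (218.9 to 271.2).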

How the results depend on the processing

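The averaged age change called 32 to 40 of the 43 mitosis genes in every alternative run. For the 39 genes called, 1495 of 1521 alternative values kept direction and call, 26 kept the direction and lost the call (19 of them for Racgap1), and 0 turned. Calls held in every alternative for 32 genes. The other counts are small and moved. With a pseudocount of 1 the age change in NON gave 1 call. With 50 it gave 7, that in C57 3 and the strains at 2 weeks 2. With a signal minimum of 100 these were 5, 4 and 2. Quantile normalization gave 2 calls between strains at 2 weeks, 1 at 4 weeks and 1 in C57. At an adjusted p under 0.005, both strain comparisons and NON gave 0. With the Gapdh ratio as a covariate, the strains at 4 weeks and NON gave 1 each. With all 30 mice in 1 fit, NON gave 14, C57 16 and the strains at 2 weeks 2. Counting any probe set of a gene gave 2 at 2 weeks and 1 in C57. The methods' t-test at an unadjusted p under 0.001 gave 13 in NON and 5 in C57, and with Benjamini-Hochberg adjustment 5 in NON. Without the 3 mice that stood apart, NON gave 0. Shares of all genes are given above for NON and C57 in the fit over all 30 mice. The counts of the other settings stand without such a share. They show only how the number of calls moved, and nothing about mitosis genes against other genes. The cause of each move was not tested. Leaving out 1 mouse at a time gave 0 to 2 calls between strains at 2 weeks, 0 to 3 at 4 weeks, 0 in NOD, 0 to 2 in NON, 0 to 5 in C57, 38 to 40 for the averaged age change and 0 for the interaction. Age change in NOD and the interaction had 0 calls in every alternative run.

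With the replicate number as a block (replicate block), the strain comparisons at both ages and the age change in NON gave 0 calls, and the averaged age change 39. The labels do not say that a number marks a shared litter or day. Over 75 pairs of mice with the same number, the median correlation of their deviations from the group means was 0.0371 (8 pairs over 0.1), against -0.00921 over 300 other pairs of mice in different groups, and 12 of 30 mice correlated best with their own number. The numbers were therefore not taken as pairs, and a weak shared factor was not excluded. Leaving out the 3 mice that stood apart, choosing probe sets after rescaling 430B signals, and adjusting the methods' t-test were chosen after seeing the data. The number of mice limits the fits within a strain. Dim probe sets limit single genes, and 19 of the 26 second probe sets without a call had a mean under 150.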

Other observations

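Outside the cell cycle lists, the 10 genes whose level followed the mean of the mitosis genes most closely over the 30 mice, with the 6 group means removed, included Hirip3 (r = 0.87, an interactor of a histone chaperone), Kpna2 (0.85, a nuclear import receptor), Tipin (0.85) and Clspn (0.83), which act at replication forks, and Slbp (0.83), which binds histone mRNA. The remaining genes were Glrx5 (0.81), Nudt4 (0.81), Exo1 (0.81), Nipa1 (0.80) and Hmgb3 (0.79). They were taken as the highest of 29226 probe sets and share the arrays of the mitosis genes, so the values are a description. Of the 10, 7 were lower at 4 weeks at an adjusted p under 0.05 (limma, averaged over strains), with Clspn at -0.92, Tipin at -0.87 and Hirip3 at -0.85. Glrx5 (-0.41, adjusted p = 0.13), Exo1 (-0.48, adjusted p = 0.062) and Nipa1 (-0.18, adjusted p = 0.82) were not called.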
